A study of Saccharomyces cerevisiae with 8 samples.

Results

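Treated trm2 knockout yeast was set against untreated wild type, the pair of groups that differed in both factors of the study, genotype and drug. The comparison used 4 of the 8 RNA-seq libraries, the 2 titled Trm2KO 50ug/mL hygB and the 2 titled WT no hygB, and the other 4 libraries gave the steps in between. Of the 7127 features in the deposited table, 6439 had a mean of at least 1 FPKM, which is fragments mapped to a transcript scaled by its length and by the size of the library, over the 8 libraries, and these were tested. The study asked how a methyluridine in tRNA bears on the movement of the ribosome along mRNA.

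All groups were haploid Saccharomyces cerevisiae of strain BY4741 in rich YPD medium at 30 °C, each with 2 libraries described as biological duplicates. The treated knockout lacked TRM2, was grown with 200 µg/mL Geneticin and 50 µg/mL hygromycin B, and was collected at an OD600 of 0.4. The untreated knockout had the same deletion and Geneticin without hygromycin B and was collected at an OD600 between 0.6 and 0.8. The treated wild type received 50 µg/mL hygromycin B and was collected at an OD600 of 0.4. The untreated wild type received no hygromycin B and was collected at an OD600 between 0.6 and 0.8. Geneticin is stated for the knockout cultures alone, so the deletion and Geneticin cannot be told apart. Likewise hygromycin B and the lower cell density at harvest cannot be told apart.

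Trm2 is the enzyme that makes 5-methyluridine in the T loop of most tRNAs, a modification found from bacteria to animals. Hygromycin B is an aminoglycoside that binds the small ribosomal subunit and slows translocation, the step in which the ribosome moves on by a codon. Geneticin is another aminoglycoside, used to select for the resistance cassette that replaces a deleted gene. Yeast answers slowed growth and stress largely through transcription: Msn2 and Msn4 switch on stress genes, Aft1 and Aft2 the genes for iron uptake, Gcn4 and Bas1 the genes for amino acids, purines and one-carbon units, and glucose sensing sets the hexose transporters.

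The promoters below are shown because their genes stand among the largest, the added or the cancelled changes described further on. Each is the 200 bases from 300 to 101 bases before the start codon in the RefSeq R64 assembly, written 5′ to 3′ on the strand of the gene. Capitals mark TGCACCC, the core bound by Aft1, in FIT2 and TIS11. They mark AGGGG, the stress element bound by Msn2 and Msn4, in HSP12, and TGACTC, the core bound by Gcn4 and Bas1, in ADE17 and GCV2. Matches on either strand are in capitals. FIT2 lies at chrXV:1059231-1059430 on the plus strand, TIS11 at chrXII:416759-416958 on the minus strand, HSP12 at chrVI:106956-107155 on the plus strand, ADE17 at chrXIII:509381-509580 on the minus strand and GCV2 at chrXIII:637200-637399 on the plus strand.
FIT2: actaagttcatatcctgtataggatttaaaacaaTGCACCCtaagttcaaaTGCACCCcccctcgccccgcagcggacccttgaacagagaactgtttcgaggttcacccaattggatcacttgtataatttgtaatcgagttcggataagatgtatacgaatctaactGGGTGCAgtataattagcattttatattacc
TIS11: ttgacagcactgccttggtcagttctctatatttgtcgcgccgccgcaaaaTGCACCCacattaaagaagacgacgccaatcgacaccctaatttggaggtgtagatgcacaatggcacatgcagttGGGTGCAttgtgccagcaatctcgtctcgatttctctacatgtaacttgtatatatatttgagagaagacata
HSP12: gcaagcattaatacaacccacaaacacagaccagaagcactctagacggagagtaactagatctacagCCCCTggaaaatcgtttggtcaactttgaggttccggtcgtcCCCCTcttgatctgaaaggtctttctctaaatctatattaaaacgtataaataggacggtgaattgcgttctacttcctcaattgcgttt
ADE17: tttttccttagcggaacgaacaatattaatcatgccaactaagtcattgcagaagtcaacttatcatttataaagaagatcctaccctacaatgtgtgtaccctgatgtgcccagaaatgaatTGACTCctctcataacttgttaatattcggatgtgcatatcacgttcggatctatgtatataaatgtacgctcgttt
GCV2: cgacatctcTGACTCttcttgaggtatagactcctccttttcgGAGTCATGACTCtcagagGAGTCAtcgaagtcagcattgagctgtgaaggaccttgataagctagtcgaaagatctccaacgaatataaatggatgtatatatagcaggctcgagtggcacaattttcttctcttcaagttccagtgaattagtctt

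In windows of this length TGCACCC was found upstream of 59 of 6001 protein-coding genes, which is 0.983%, and upstream of 16 of the 28 genes listed here as the iron regulon, which is 57.1%. AGGGG was found upstream of 976 of the 6001 genes, or 16.3%, and upstream of 41 of the 56 listed stress genes, or 73.2%. TGACTC was found upstream of 351 of the 6001 genes, or 5.85%. It was found upstream of 10 of 21 purine genes, or 47.6%, and of 11 of 20 glycine and one-carbon genes, or 55%. Both strands were searched, and no match of 1 of these motifs overlapped a match of another in the promoters shown. Such a match is a run of letters and not a shown binding site, and the iron and stress lists were compiled from genes known as targets of these factors.

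TRM2 was listed at 0 FPKM in both treated and both untreated knockout libraries. It stood at 158 and 152 normalised FPKM in the treated wild-type libraries, against 116 and 122 in the untreated wild-type libraries. The genotype labels therefore matched this gene in all 8 libraries. LEU2, URA3 and MET17, which BY4741 lacks, were listed at 0 in all 8 libraries, and HIS3, which is deleted only in part, lay between 34.4 and 54.0. The a-factor genes MFA1 and MFA2, which are very short, were listed at 0 throughout, while the a-cell receptor STE2 had 564 and 545.5 in the treated knockout and 708 and 706 in the untreated wild type. Summed MATalpha genes stayed between 38.0 and 46.6.

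Replicate libraries correlated at 0.984 to 0.989 on the log2 scale across genes, with a median absolute difference of 0.0576 to 0.130. Features of the ribosomal DNA held 3.75% and 12.2% of the FPKM in the treated knockout libraries, 19.3% and 5.36% in the untreated knockout, 2.68% and 2.39% in the treated wild type and 15.8% and 2.01% in the untreated wild type. Values were therefore rescaled by the median ratio to the geometric mean over libraries, called normalised FPKM here, and the part of the ribosomal DNA share in the results was not tested. A version without the 2 end-group libraries of high ribosomal DNA share is given beside the first count. Read depth is unknown, because the deposited values could not be turned back into whole reads.

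Treated knockout and untreated wild type differed in 3364 of 6439 genes, or 52.2%, at an adjusted p under 0.05 (limma on log2 of normalised FPKM plus 1, two-sided, Benjamini-Hochberg over all tested genes, 2 libraries a group). Such a gene is named here as called. Of these, 1701 were higher in the treated knockout, which is 26.4% of those tested, and 1663 were lower, which is 25.8%. Most differences were small: the median absolute log2 change was 0.28, and 383 genes, or 5.95%, were called and at least 2-fold apart, 129 higher, which is 2.0%, and 254 lower, which is 3.94%. Without treated knockout library 2 and untreated wild-type library 1, the 2 with the high ribosomal DNA share, 1332 genes were called, 661 higher and 671 lower. With the FPKM as deposited 203 genes were called, 81 higher and 122 lower, and the median over all genes was then 0.10. With TPM, FPKM rescaled to a common sum, 1382 were called, 791 higher and 591 lower, and that median was 0.06. The share of higher calls was 50.6% after rescaling, 39.9% with the FPKM as deposited and 57.2% with TPM.

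The total change is exactly the sum of a genotype step without drug, the untreated knockout minus the untreated wild type, and a drug step within the knockout. The genotype step had 2771 called genes, or 43.0%, of which 225, or 3.49% of those tested, were at least 2-fold apart, and its median absolute log2 change was 0.23. The drug step in the knockout had 2778 called genes, or 43.1%, of which 147, or 2.28%, were at least 2-fold apart, and its median absolute change was 0.24. The drug step in the wild type had 5071 called genes, or 78.8%, of which 1885, or 29.3%, were at least 2-fold apart, and its median absolute change was 0.65. The treated knockout differed from the treated wild type in 4970 genes, or 77.2%, of which 1678, or 26.1%, were at least 2-fold apart, and the median absolute change was 0.59. By these counts treated knockout and untreated wild type, although they differ in both factors, were nearer to each other than either was to the treated wild type. These comparisons share libraries with each other.

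**Figure D1:**
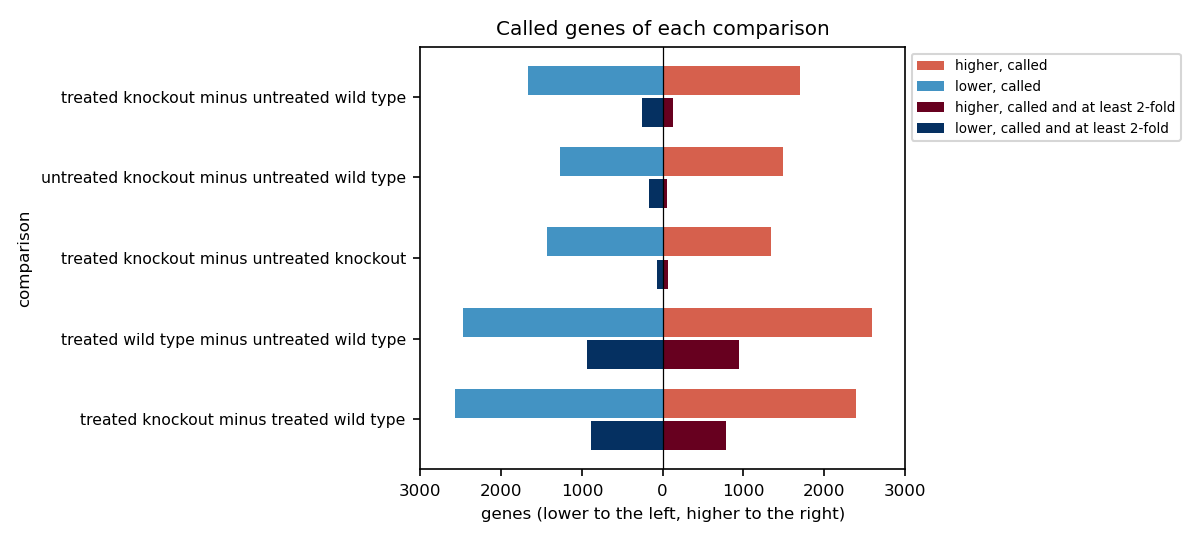
Number of called genes (x axis, lower to the left and higher to the right of 0) in each of 5 comparisons (rows), with the called genes at least 2-fold apart as the darker bars. The total change of treated knockout against untreated wild type has 3364 called genes, fewer than the 5071 of the drug step in wild type, and 254 of its 2-fold changes are lower against 129 higher.

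The 15 highest and 15 lowest total changes were taken among called genes with a mean of at least 10 in the higher end group, no value of 0 and no overlap of the end groups, and their p-values are limma's over all genes. Among the 15 highest, 6 genes belonged to the iron regulon, a list of 28 genes of iron uptake and sparing under Aft1 and Aft2. FIT2, which codes for a cell wall mannoprotein that holds siderophore iron, stood at 4083 and 2815 in the treated knockout, 2718 and 3979 in the untreated knockout, 393 and 432 in the treated wild type and 255 and 286 in the untreated wild type. The knockout libraries lay above all wild-type libraries with or without drug, and the total log2 change was 3.64 ± 0.23 (SE, n = 2 libraries a group, adjusted p = 8.4e-05), 12.5-fold. FIT3, a second mannoprotein of this kind, stood at 1363 and 1024 in the treated knockout, 966 and 1672 in the untreated knockout, 46.9 and 77.1 in the treated wild type and 219 and 281 in the untreated wild type. The drug left FIT3 lower in the wild type, by 2.02 on the log2 scale, whereas its drug step in the knockout was -0.10 and not called.

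The siderophore transporters SIT1 and ARN2 and the heme oxygenase HMX1 were raised by both steps. SIT1 had 339.5 and 319.7 in the treated knockout, 214 and 234 in the untreated knockout, 117.9 and 122.6 in the treated wild type and 59.1 and 63.98 in the untreated wild type. Its total change of 2.40 ± 0.07 (SE) was made of 1.85 for the genotype and 0.55 for the drug in the knockout. HMX1 had 119 and 107 in the treated knockout, 39.4 and 45.9 in the untreated knockout, 35.2 and 40.7 in the treated wild type and 20.3 and 22.2 in the untreated wild type. Both treated knockout libraries stood above the other 6, and the untreated knockout overlapped the treated wild type. TIS11, which codes for an RNA-binding protein that has mRNAs of iron-using proteins degraded, had 216 and 191 in the treated knockout, 83.2 and 97.1 in the untreated knockout, 236 and 252 in the treated wild type and 28.2 and 32.4 in the untreated wild type. Both treated groups stood above both untreated groups, and the treated knockout minus the treated wild type was -0.26 and not called.

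Of the 28 iron genes 25 were higher in the total change and none lower, with a median log2 change of 1.18, where over all tested genes 26.4% were higher, 25.8% lower and the median was -0.00. The genotype step had 21 higher and 3 lower, where 23.2% of all genes were higher and 19.8% lower. The drug step in the knockout had 18 higher and 1 lower, where 20.9% were higher and 22.3% lower. In the drug step in the wild type 22 were higher and 3 lower, with a median of 1.00, where 40.4% of all genes were higher. Treated knockout against treated wild type had 11 higher and 9 lower, with a median of 0.09, where 37.3% were higher and 39.9% lower. ARN1, a ferrichrome transporter, and FET3, the multicopper ferroxidase of high-affinity uptake, were raised by 1.99 and 1.85 in total. The ferric reductase FRE1 stood at 475 and 462 in the treated knockout and 157 and 173 in the untreated wild type, while the treated wild type was lowest at 29.1 and 28.2. The 3 members not called were FRE4, LSO1 and the vitamin H transporter VHT1, which was picked out after its values were seen. Their total changes were -0.16, -0.22 and 0.18. Leaving out 1 library at a time gave 21 to 26 members higher and none lower in total. With the FPKM as deposited 13 were higher and none lower, where 81 of all 6439 genes were higher and 122 lower. The genotype step as deposited had 3 higher and 1 lower, where 23 of all genes were higher and 140 lower. The drug step in the knockout then had 4 higher and none lower, where 82 were higher and 23 lower.

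The highest 15 also held AZR1, ARO9, ARO10, HSP12 and NRG1. AZR1, a membrane transporter of the major facilitator family known for azole resistance, stood at 175 and 175 in the treated knockout, 163 and 151 in the untreated knockout, 5.96 and 6.68 in the treated wild type and 17.7 and 17.8 in the untreated wild type. Its total change was 3.23 ± 0.06 (SE, adjusted p = 2.7e-06), of which the genotype step was 3.07, and the drug lowered it by 1.36 in the wild type. YLR046C and YLL056C also stood high in both knockout groups, with total changes of 3.29 and 3.09 and genotype steps of 2.90 and 3.18. Of the 28 genes of multidrug transport and its regulators 10 were higher and 8 lower, with a median of 0.05, where 26.4% of all genes were higher and 25.8% lower. Within this list the ABC transporter SNQ2 rose by 1.66 and YRR1, a regulator of SNQ2, by 1.54, while the exporter AQR1 fell by 1.44.

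ARO9 and ARO10, the transaminase and the decarboxylase of aromatic amino acid catabolism, were raised by both steps. ARO10 had 255.5 and 276 in the treated knockout, 110.2 and 109 in the untreated knockout, 244 and 254 in the treated wild type and 41.4 and 37.7 in the untreated wild type. Its total change of 2.72 ± 0.06 (SE) was made of 1.45 for the genotype and 1.27 for the drug, while the drug in the wild type raised it by 2.63. ARO9 had a total change of 2.44, made of 1.37 and 1.07.

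HSP12, which codes for a small membrane-associated stress protein, had the highest total change of the 15. It stood at 1414 and 1722 in the treated knockout, 67.3 and 48.3 in the untreated knockout, 7815 and 5379 in the treated wild type and 67.8 and 103 in the untreated wild type. The total log2 change was 4.21 ± 0.28 (SE), 18.5-fold. The drug step in the knockout was 4.75, and the genotype step of -0.54 was not called. NRG1, which codes for a glucose-dependent repressor, had a total of 2.14, with 102 and 116 in the treated knockout, 20.05 and 20.14 in the untreated knockout, 2362 and 2132 in the treated wild type and 25.4 and 22.5 in the untreated wild type. In both genes the treated wild type stood far above the treated knockout.

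**Figure D2:**
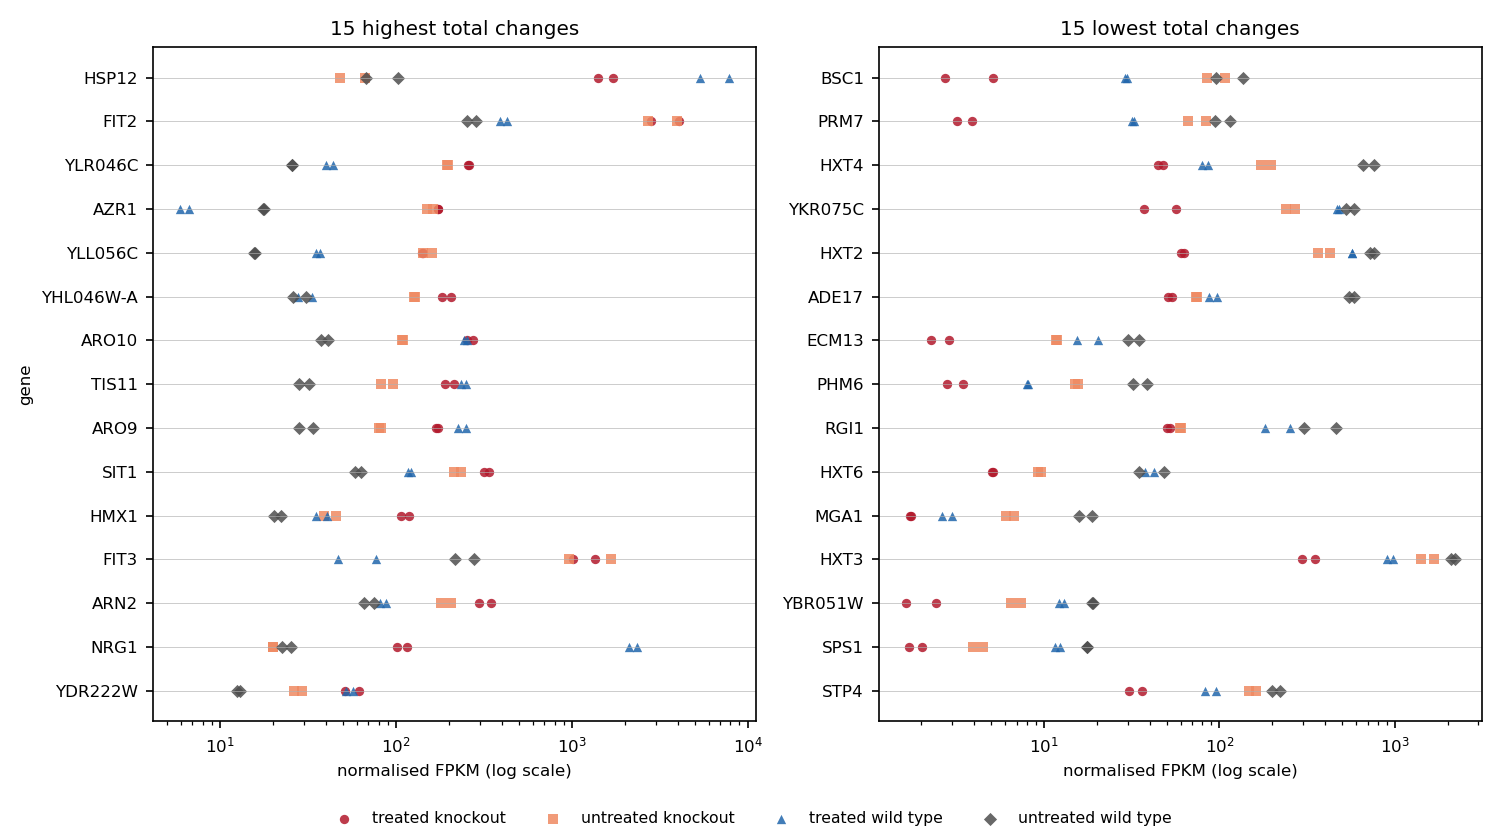
Normalised FPKM (x axis, log scale) of the 15 genes with the highest and the 15 with the lowest total change (rows), 1 point per library, coloured by group. FIT2, YLR046C, AZR1 and YLL056C sit high in both knockout groups, HSP12 and NRG1 are highest in the treated wild type, and BSC1, PRM7, HXT4 and HXT2 are lowest in the treated knockout.

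Of the lowest 15, 4 genes coded for hexose transporters. HXT4, a high-affinity transporter, had 44.8 and 47.9 in the treated knockout, 196 and 173 in the untreated knockout, 79.4 and 85.6 in the treated wild type and 762 and 655 in the untreated wild type. The genotype step of -1.93 and the drug step of -1.97 in the knockout gave a total of -3.90 ± 0.10 (SE, adjusted p = 4.2e-06). HXT2, also of high affinity, had 62.4 and 60.6 in the treated knockout, 365 and 428 in the untreated knockout, 568 and 573 in the treated wild type and 720 and 760.0 in the untreated wild type. The low-affinity HXT3 had 351 and 295 in the treated knockout, 1413 and 1665 in the untreated knockout, 900 and 983 in the treated wild type and 2089 and 2193 in the untreated wild type. In all 3 genes the treated knockout stood below the 3 other groups with no overlap.

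HXT6 had a total change of -2.79, but it is nearly identical to HXT7, at -1.98, and reads of the pair may have been shared out between them. Of the 22 tested genes of hexose transport and glucose sensing, 14 were lower and 3 higher, with a median of -0.97, where 25.8% of all genes were lower. The genotype step had 8 lower and 3 higher, where 19.8% of all genes were lower, and the drug step in the knockout had 13 lower and 1 higher, where 22.3% were lower. As deposited, 7 members were lower in total and 1 higher, where 122 of all 6439 genes were lower and 81 higher. The genotype step then had 3 lower and none higher, where 140 of all genes were lower. The drug step in the knockout had 3 lower and 1 higher, where 23 of all genes were lower and 82 higher. MTH1 and STD1, which hold hexose transporter genes repressed when glucose is low, fell by 2.26 and 1.22. The 3 members that rose were NRG1, the glucose sensor RGT2 at 0.31 and the phosphatase subunit REG1 at 0.16. Only HXT10 of this list went untested, being below 1.5 in every library.

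The neighbouring genes BSC1 and PRM7 had the lowest total changes, at -4.60 and -4.54. PRM7, named for its regulation by pheromone, had 3.87 and 3.19 in the treated knockout, 66.6 and 83.7 in the untreated knockout, 32.4 and 31.6 in the treated wild type and 94.0 and 115 in the untreated wild type. The genotype step was -0.47 and the drug step in the knockout -4.07, against a drug step of -1.67 in the wild type. Of the 27 genes of the pheromone response and of haploid cells 16 were lower and 4 higher, with a median of -0.52, where 25.8% of all genes were lower and 26.4% higher. Under the FPKM as deposited 5 were lower and none higher, where 122 of all 6439 genes were lower and 81 higher. AFR1 and FUS1, which shape the mating projection and fuse mating cells, fell by 1.59 and 1.12.

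ADE17, 1 of a pair of isozymes for the last steps to IMP, had the lowest total change of the purine genes. It had 53.8 and 50.8 in the treated knockout, 74.9 and 73.9 in the untreated knockout, 87.0 and 97.1 in the treated wild type and 587 and 545 in the untreated wild type. The 3 changed groups all stood below 100. The genotype step was -2.91, the drug step in the wild type -2.61 and the total -3.41. Its isozyme ADE16 moved the other way, with 298.5 and 298.6 in the treated knockout and 236 and 238 in the untreated wild type, a total of 0.33. Of 21 purine genes 18 were lower and 2 higher in the drug step in the wild type. The median of that step was -1.23, and 38.4% of all genes were lower in it. In total 18 of the 21 were lower and 2 higher, with a median of -0.78, where 25.8% of all genes were lower and 26.4% higher. Unscaled, as deposited, 5 were lower and none higher, where 122 of all 6439 genes were lower and 81 higher. With TPM 13 were lower and 1 higher, where 591 of all genes were lower and 791 higher. ADE12 and ADE13 fell by 2.06 and 1.83, and the second riser beside ADE16 was PHO2, a homeodomain activator that works with Bas1, at 0.97.

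The phosphate regulon holds genes for phosphate uptake and release under Pho4. On the normalised FPKM it was mostly lower in both knockout groups and in the treated wild type than in the untreated wild type. Of 21 members 14 were lower and 1 higher in total, with a median of -0.51, where 25.8% of all genes were lower. The drug step in the wild type had 14 lower and 5 higher, with a median of -0.46, where 38.4% of all genes were lower. Treated knockout against treated wild type had 7 higher and 8 lower, with a median of -0.06, where 37.3% were higher and 39.9% lower. The genotype step had 13 lower and none higher, where 19.8% of all genes were lower. The drug step in the knockout had 5 lower and 5 higher, near the 22.3% lower and 20.9% higher of all genes. As deposited, without rescaling, 3 were lower in total and 8 in the genotype step, where 122 and 140 of all 6439 genes were. In the drug step in the wild type 3 were then lower and 4 higher, where 366 of all genes were lower and 2184 higher. PHO84, the high-affinity phosphate transporter, had 71.8 and 74.9 in the treated knockout, 77.4 and 78.3 in the untreated knockout, 79.7 and 91.5 in the treated wild type and 185 and 191 in the untreated wild type. The 3 changed groups stood together below the untreated wild type. PHO84 overlaps a non-coding gene in R64, and whether strand was used in counting is not given in the sources used here. The sodium-coupled transporter PHO89 had 2.10 and 2.50 in the treated knockout, 2.16 and 1.93 in the untreated knockout, 98.3 and 106 in the treated wild type and 12.0 and 12.6 in the untreated wild type. Both knockout groups stood below both wild-type groups. The drug step of PHO89 was 2.96 and called in the wild type and 0.11 and not called in the knockout, and the difference between them, -2.84, was called.

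Both steps called with the same sign, through the untreated knockout, added up in 500 genes, or 7.77%: 261 were raised by both steps and 239 lowered by both. All 500 were also called in the total. Both steps called with opposite signs cancelled in 911 genes, or 14.1%, of which 574 were no longer called in the total. In 1360 genes the genotype step alone was called, in 1367 the drug step alone and in 2301 neither, and 392 of those last were called in the total. Steps of at least 2-fold in both were rare, with 11 genes that added up and 32 that cancelled, of which 22 were not called in the total. The steps share the untreated knockout libraries with opposite sign, so chance error there makes cancelling look more frequent, and these counts are a description. With a different untreated knockout library in each step, 300 or 217 genes added up and 400 or 422 cancelled. More genes cancelled than added up in both of those versions. Leaving out 1 library at a time gave 224 to 707 genes that added up and 435 to 1227 that cancelled.

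**Figure D3:**
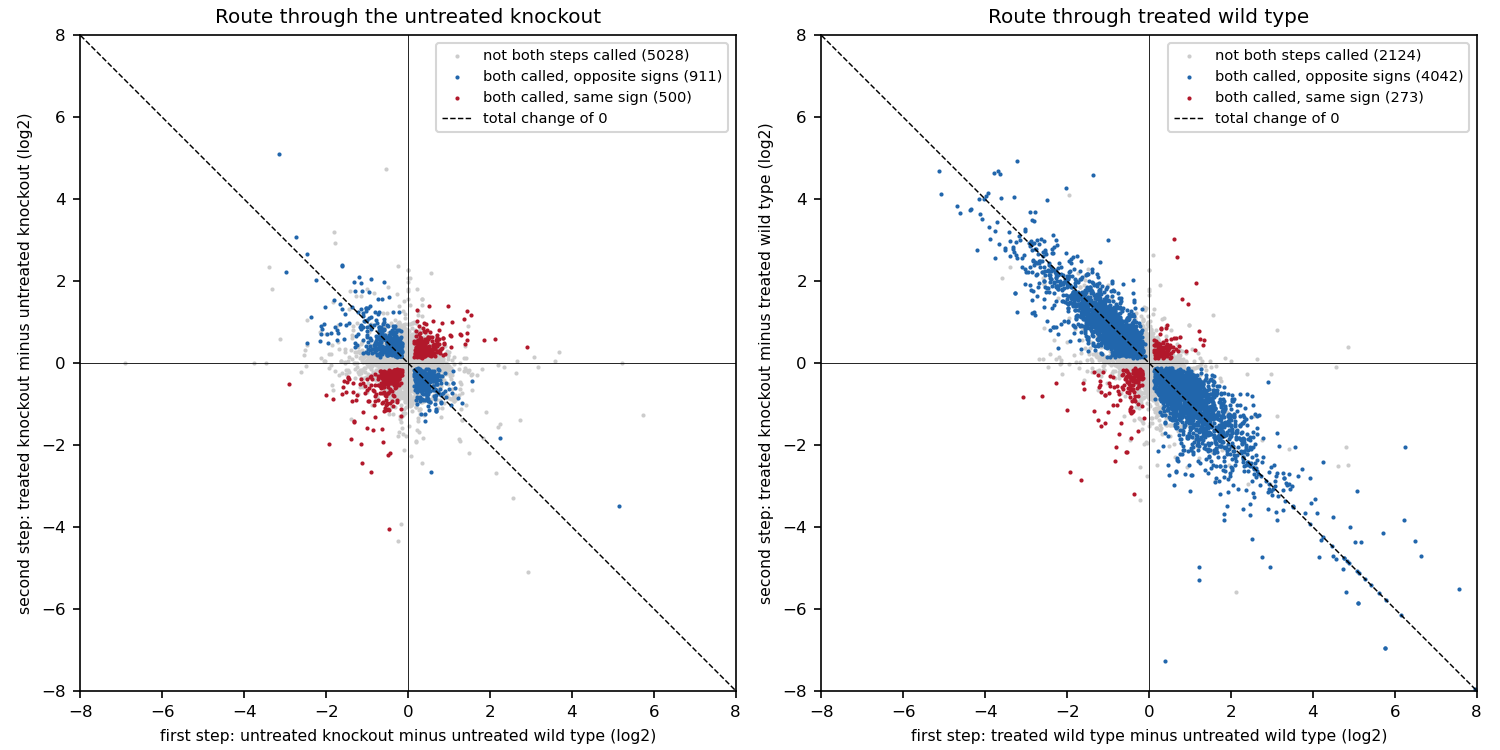
Log2 change of the first step (x axis) against the second step (y axis) for 6439 genes, through the untreated knockout (left) and through the treated wild type (right), with genes called in both steps coloured by whether the signs match. On the left 911 genes have opposite signs and 500 the same, and on the right 4042 have opposite signs and 273 the same, close to the dashed line of no total change.

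The genes with the largest smaller step among those raised by both were ARO10, TIS11, ARO9, YDR222W, HMX1 and BIO5, in that order. BIO5, a transporter of biotin precursors, had 34.2 and 29.0 in the treated knockout, 14.6 and 16.6 in the untreated knockout, 185 and 163 in the treated wild type and 7.86 and 8.70 in the untreated wild type. Its total of 1.81 was far below the drug step of 4.24 in the wild type. Among genes lowered by both they were HXT4, ECM13, YBR051W, MGA1, PHM6 and YKR075C. ECM13 had 2.28 and 2.85 in the treated knockout, 11.6 and 11.9 in the untreated knockout, 20.2 and 15.3 in the treated wild type and 30.3 and 34.7 in the untreated wild type. Its 4 groups did not overlap. PHM6, a phosphate-regulated gene, had a total of -3.14 that matched the sum of its single changes, -3.16. YKR075C had 56.7 and 36.9 in the treated knockout, 239.9 and 269.5 in the untreated knockout, 479 and 467.5 in the treated wild type and 529 and 583 in the untreated wild type.

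Over all tested genes 7.77% added up and 14.1% cancelled. In the iron regulon 12 of 28 members added up and 4 cancelled, in hexose transport 7 of 22 and 2, and in purine synthesis 8 of 21 and 6. These counts are on the rescaled values. With the FPKM as deposited only 3 of all tested genes added up and 34 cancelled, and with TPM 66 and 331. Of 74 mitochondrial ribosomal proteins, which translate the mitochondrial genome, 61 were lower and 2 higher in total, with a median of -0.47, where 25.8% of all genes were lower, and 17 added up against 3 that cancelled. None was called in total with the FPKM as deposited, where 203 of all 6439 genes were. With TPM 17 were lower and 1 higher, where 591 of all genes were lower and 791 higher. MRPL38 had 75.0 and 75.1 in the treated knockout, 92.6 and 94.7 in the untreated knockout, 136 and 131 in the treated wild type and 152 and 140 in the untreated wild type. RSM22 fell by 0.88 and RML2 by 0.84. The 2 members called higher were MRPL28 and MRP8, both at 0.45, and MRP8 is in the list by its name alone. The median of the genotype step was -0.31 and negative under all 4 scalings. That of the drug step in the knockout was -0.19, but 0.21 with the FPKM as deposited and 0.11 with TPM. Over all genes the median of this drug step was then 0.36 and 0.26.

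Among genes lower in the genotype step and higher in the drug step in the knockout were 2 of glycine cleavage. GCV1, a subunit of the glycine cleavage complex, had 236 and 257 in the treated knockout, 37.2 and 39.4 in the untreated knockout, 393 and 421 in the treated wild type and 217 and 215 in the untreated wild type. A genotype step of -2.47 and a drug step of 2.65 left a total of 0.19 ± 0.06 (SE, adjusted p = 0.046). GCV2, another subunit of the complex, had 64.1 and 71.5 in the treated knockout, 11.9 and 12.2 in the untreated knockout, 55.9 and 69.4 in the treated wild type and 39.1 and 39.0 in the untreated wild type. Its genotype step of -1.62 and drug step of 2.40 overshot, to a total of 0.78 ± 0.11 (SE). In both genes the untreated knockout stood below all other libraries.

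Of the 20 genes of glycine cleavage and one-carbon metabolism 10 were lower and 3 higher in total, with a median of -0.25, where 25.8% of all genes were lower. Of them 8 cancelled and none added up, where 14.1% of all genes cancelled and 7.77% added up. Only 1 was lower in total, and none higher, with the FPKM as deposited, where 122 of all 6439 genes were lower. SHM2, the cytosolic serine hydroxymethyltransferase, had 198 and 213 in the treated knockout, 132 and 151 in the untreated knockout, 222 and 259 in the treated wild type and 633.5 and 631 in the untreated wild type. Its genotype step of -2.16 was met by a drug step of 0.54 in the knockout, for a total of -1.62. MTD1 likewise had -1.95 and 0.48, for a total of -1.46. The third member called higher beside GCV1 and GCV2 was FOL3, a gene of folate synthesis, at 0.32.

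The general stress list of 56 genes under Msn2 and Msn4 moved in opposite directions in the 2 steps. Without drug 38 members were lower in the knockout and 2 higher, with a median of -0.62, where 19.8% of all genes were lower. With drug in the knockout 40 were higher and none lower, with a median of 0.93, where 20.9% of all genes were higher. In the total 21 were higher and 12 lower, with a median of 0.12, where 26.4% of all genes were higher and 25.8% lower. In this list 33 genes cancelled and 2 added up, against 14.1% and 7.77% of all genes. The FPKM as deposited gave 14 lower in the genotype step, 20 higher in the drug step in the knockout, and 4 higher and 1 lower in total. Over all 6439 genes these counts were 140, 82, 81 and 122. HSP26, a small heat shock chaperone, had 42.3 and 46.7 in the treated knockout, 15.0 and 16.7 in the untreated knockout, 423 and 430 in the treated wild type and 57.5 and 47.8 in the untreated wild type. A genotype step of -1.67 and a drug step of 1.43 gave a total of -0.23 that was not called (adjusted p = 0.099). HOR7, a gene of the osmotic response, had 1007 and 1141 in the treated knockout, 214 and 199 in the untreated knockout, 2922 and 2408 in the treated wild type and 577 and 695 in the untreated wild type, for a total of 0.76.

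Other stress genes did not move back. GLG1, which primes glycogen, had 16.7 and 17.2 in the treated knockout, 17.6 and 17.1 in the untreated knockout, 36.9 and 34.0 in the treated wild type and 72.8 and 60.8 in the untreated wild type. Its genotype step was -1.88, and the drug step in the knockout was -0.04 and not called. YGP1, a secreted glycoprotein gene, and GRE3, an aldose reductase gene, were the 2 members raised by both steps, with totals of 1.36 and 0.69. The directions of both steps in this list held under all 4 scalings, with medians of -0.57 to -0.88 for the genotype and 0.89 to 1.32 for the drug. Leaving out 1 library in turn gave 12 to 21 members higher and 6 to 13 lower in the total.

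Genes raised without drug and lowered by it included MDH2, the cytosolic malate dehydrogenase, and URA1, the dihydroorotate dehydrogenase of pyrimidine synthesis. MDH2 had 124 and 121 in the treated knockout, 232 and 255 in the untreated knockout, 188 and 206 in the treated wild type and 102 and 91.5 in the untreated wild type. URA1 had 787 and 722 in the treated knockout, 1314 and 1393 in the untreated knockout, 1040.0 and 1004 in the treated wild type and 604 and 564 in the untreated wild type. Each was higher in the untreated knockout and in the treated wild type than in the untreated wild type. The total change of the treated knockout was only 0.34 and 0.37. EEB1, an ester synthase gene, and FRE4, a ferric reductase gene, followed the same course with totals of -0.15 and -0.16 that were not called. LSO1, a small gene with iron-dependent expression, went down in the first step and up in the second. It had 26.1 and 14.3 in the treated knockout, 2.67 and 5.89 in the untreated knockout, 2.51 and 4.21 in the treated wild type and 18.1 and 28.5 in the untreated wild type. Its replicates differed widely, and its total of -0.22 ± 0.42 (SE) was not called. snR85 and YOR345C were also called in opposite directions in the 2 steps, with totals of 0.03 and 0.10 that were not called.

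**Figure D4:**
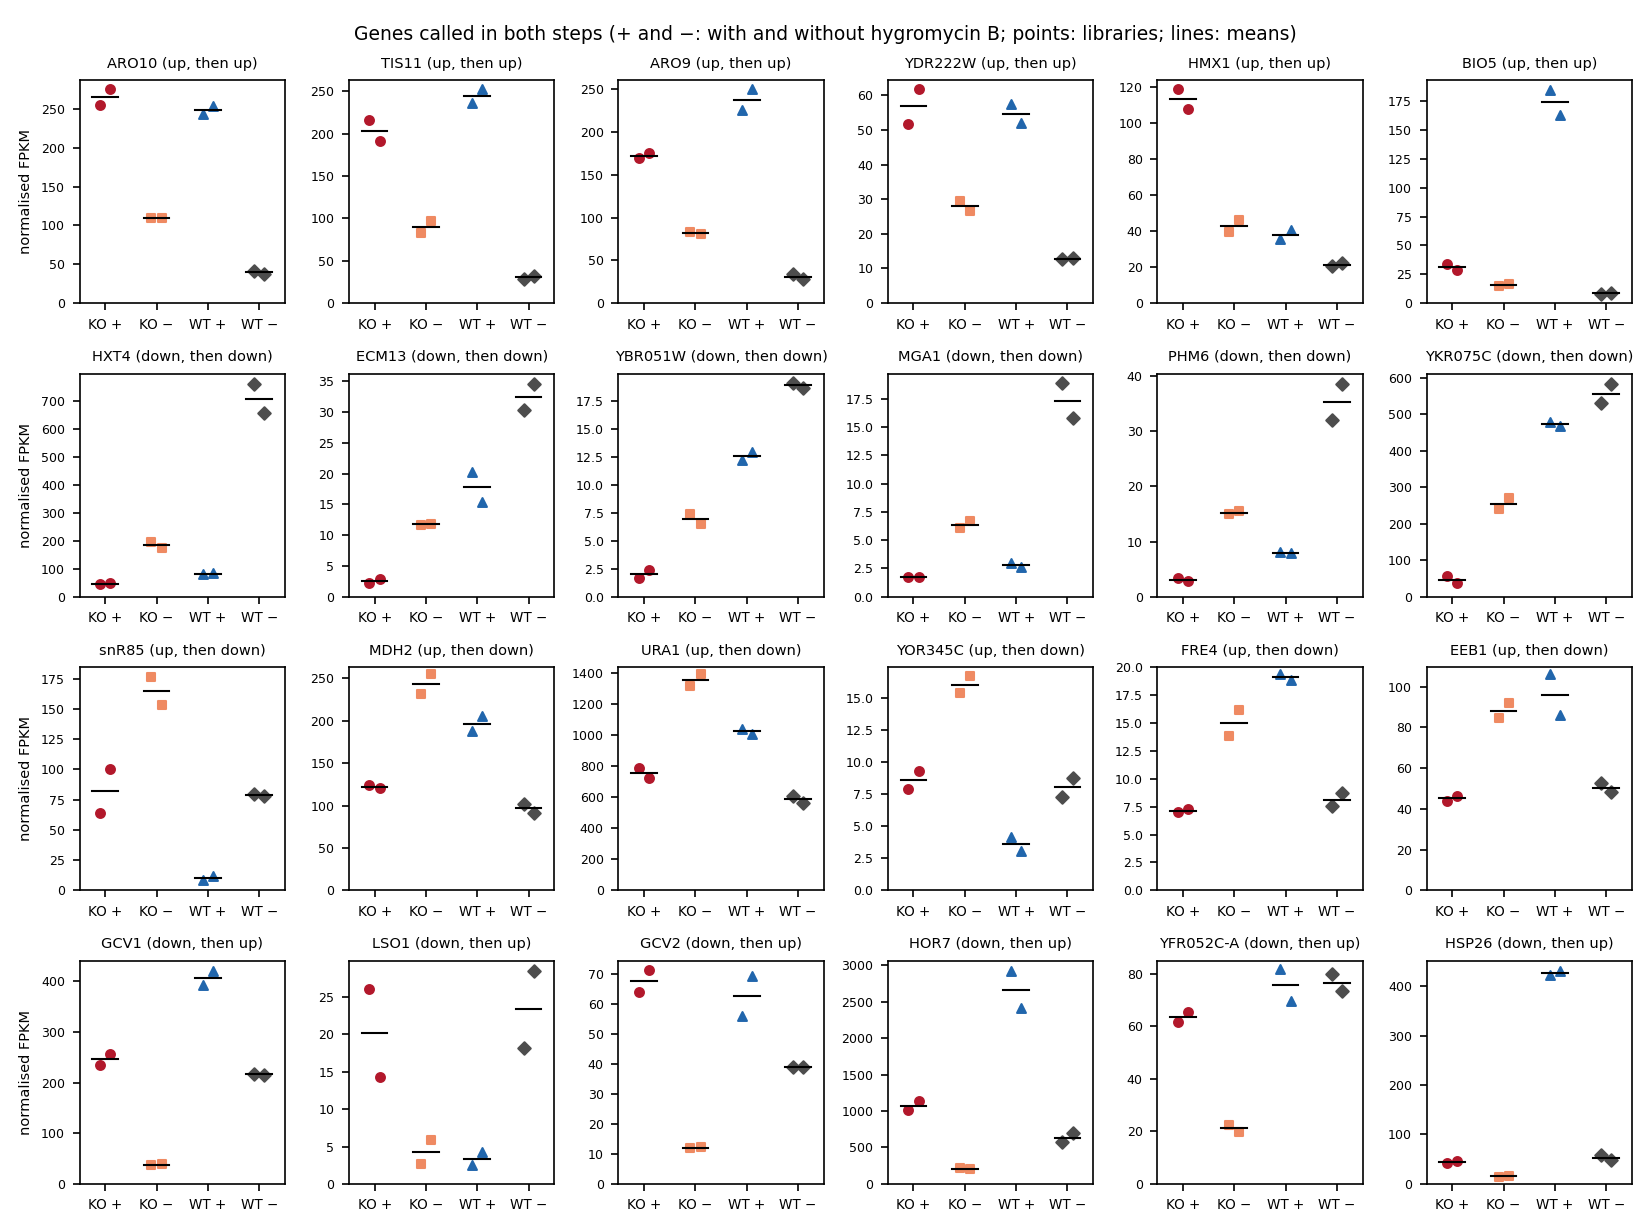
Normalised FPKM (y axis, linear from 0) in each library for 24 genes called in both steps, 6 in each of 4 classes (rows), with KO for the knockout, WT for the wild type, plus for hygromycin B and a line at each group mean. ARO10 at 255.5 and 276 in the treated knockout lies just above the treated wild type. HXT4 at 44.8 and 47.9 is lowest in the treated knockout, whereas GCV1 and HSP26 are lowest in the untreated knockout.

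Among cytosolic ribosomal proteins the steps were of opposite sign, but this depended on the scaling. Of 135 members 88 were higher in the genotype step and none lower, where 23.2% of all genes were higher. In the drug step in the knockout 67 were lower and 2 higher, where 22.3% of all genes were lower. In all, 53 cancelled, where 14.1% of all genes did. The total had 10 higher and 1 lower, where 26.4% of all genes were higher and 25.8% lower. The median steps of 0.30 and -0.27 became 0.01 and 0.02 with quantile normalisation, where those over all genes were 0.03 and -0.002. With the FPKM as deposited they were 0.00 and 0.14, where those over all genes were -0.26 and 0.36, and no member was called. Beside all genes both directions were thus kept as deposited and lost with quantile normalisation. Leaving out 1 library left as few as 15 higher in the genotype step and 8 lower in the drug step. RPS28B had the largest total, 1.08, with 841.5 and 832 in the treated knockout and 340.2 and 461 in the untreated wild type. RPS10A was the only member called lower, at -0.38. RPL7B and RPS22B were called higher at 0.69 and 0.71, but each overlaps a small nucleolar RNA gene in R64, and the short genes RPL39, RPL41A and RPL41B were listed at 0.

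The aminoacyl-tRNA synthetases, which load tRNA, were mostly lower with the drug in both genotypes on the normalised FPKM. Of 22 aminoacyl-tRNA synthetases 19 were lower in the drug step in the knockout and none higher, where 22.3% of all genes were lower. In the drug step in the wild type 21 were lower, where 38.4% of all genes were. Their total had 13 lower and 1 higher, with a median of -0.23, where 25.8% of all genes were lower. As deposited, 1 was lower in the drug step in the wild type, where 366 of all 6439 genes were. None was then called in the drug step in the knockout or in total. KRS1, for lysine, had 483 and 474 in the treated knockout, 729 and 747 in the untreated knockout, 261 and 278 in the treated wild type and 673.5 and 648 in the untreated wild type. The single riser was CDC60, for leucine, at 0.24. Of 66 ribosome biogenesis genes 44 were lower and none higher in the drug step in the knockout, where 22.3% of all genes were lower. In total 36 were lower and 2 higher, with a median of -0.22, where 25.8% of all genes were lower. None was called in total with the FPKM as deposited, and 2 were lower with TPM, where 591 of all 6439 genes were lower. NMD3, an export adaptor of the large subunit, fell by 0.63 and KRR1, a small subunit factor, by 0.54, while UTP22 and UTP8 rose by 0.30 and 0.31. With the FPKM as deposited the median drug step in the knockout was -0.02 for the synthetases, 0.07 for the biogenesis genes and 0.36 over all genes. No member of either list was called in that step.

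Because the knockout lacks a tRNA modification enzyme, the other tRNA modification genes were listed too: of 54 members, 16 were higher and 15 lower in total, with a median of 0.06, near the 26.4% higher and 25.8% lower of all tested genes. A further list held genes that detect stalled or collided ribosomes and degrade mRNA. Of its 38 members 22 were higher and 3 lower in total, with a median of 0.33, where 26.4% of all genes were higher and 25.8% lower. With the FPKM as deposited no member of either list was called in total, and with TPM 10 of the 38 were higher and none lower. Of all 6439 genes 203 were called as deposited, and 791 were higher and 591 lower with TPM. MBF1, which limits frameshifting when ribosomes collide, had 2255 and 2142 in the treated knockout, 972 and 1099 in the untreated knockout, 3896 and 3446 in the treated wild type and 1115 and 1046 in the untreated wild type, a total of 1.02 with a genotype step of -0.06 that was not called. CUE3, a member of the complex that takes collided ribosomes apart, rose by 0.67, HEL2, the ubiquitin ligase that marks them, by 0.43, and the decapping enzyme gene DCP2 by 0.82. The 3 that fell were PAT1 at -0.60, UFD1 at -0.30 and DCP1 at -0.26.

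Glycolytic and fermentation genes were mostly lower in the treated knockout. Of 22 members 16 were lower and 1 higher in total, with a median of -0.56, where 25.8% of all genes were lower. With the FPKM as deposited 3 were lower in total and none higher, and with TPM 7 were lower. Of all 6439 genes 122 were lower as deposited and 591 with TPM. The drug step had a median of -0.67 in the knockout and -2.29 in the wild type. HXK2, the main hexokinase of growth on glucose, had 700.1 and 625 in the treated knockout, 1483 and 1650.0 in the untreated knockout, 354 and 363 in the treated wild type and 1283 and 1225 in the untreated wild type. ENO1, an enolase, had a total of -1.61 and ADH5, an alcohol dehydrogenase, one of -2.21. The 1 riser was PYK2, the minor pyruvate kinase, at 0.38. The genotype step of this list had 4 higher and 4 lower, where 23.2% of all genes were higher and 19.8% lower. Its median of 0.27 became -0.11 with quantile normalisation and -0.03 with the FPKM as deposited. Over all genes these medians were 0.03 and -0.26.

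Genes of the start of the cell cycle and of DNA replication were mostly higher. Of 44 members 27 were higher and 3 lower in total, with a median of 0.26, where 26.4% of all genes were higher. The genotype step had 26 higher and 1 lower, with a median of 0.28, where 23.2% of all genes were higher. With the FPKM as deposited 3 were higher in total and none in the genotype step, where 81 and 23 of all 6439 genes were. The median of the genotype step was then -0.01, where that over all genes was -0.26. In bulk RNA, more cells at a stage of the cycle and more RNA per cell cannot be told apart. POL12, a subunit of DNA polymerase alpha, had 32.5 and 30.6 in the treated knockout, 31.9 and 30.7 in the untreated knockout, 17.2 and 16.5 in the treated wild type and 12.8 and 12.2 in the untreated wild type. MCD1, a cohesin subunit, had 136 and 137 in the treated knockout, 128 and 120.0 in the untreated knockout, 9.46 and 9.95 in the treated wild type and 73.6 and 73.2 in the untreated wild type. The 3 members called lower were the ribonucleotide reductase genes RNR4 at -1.21 and RNR2 at -0.80 and the cyclin gene CLN3 at -1.04.

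**Figure D5:**
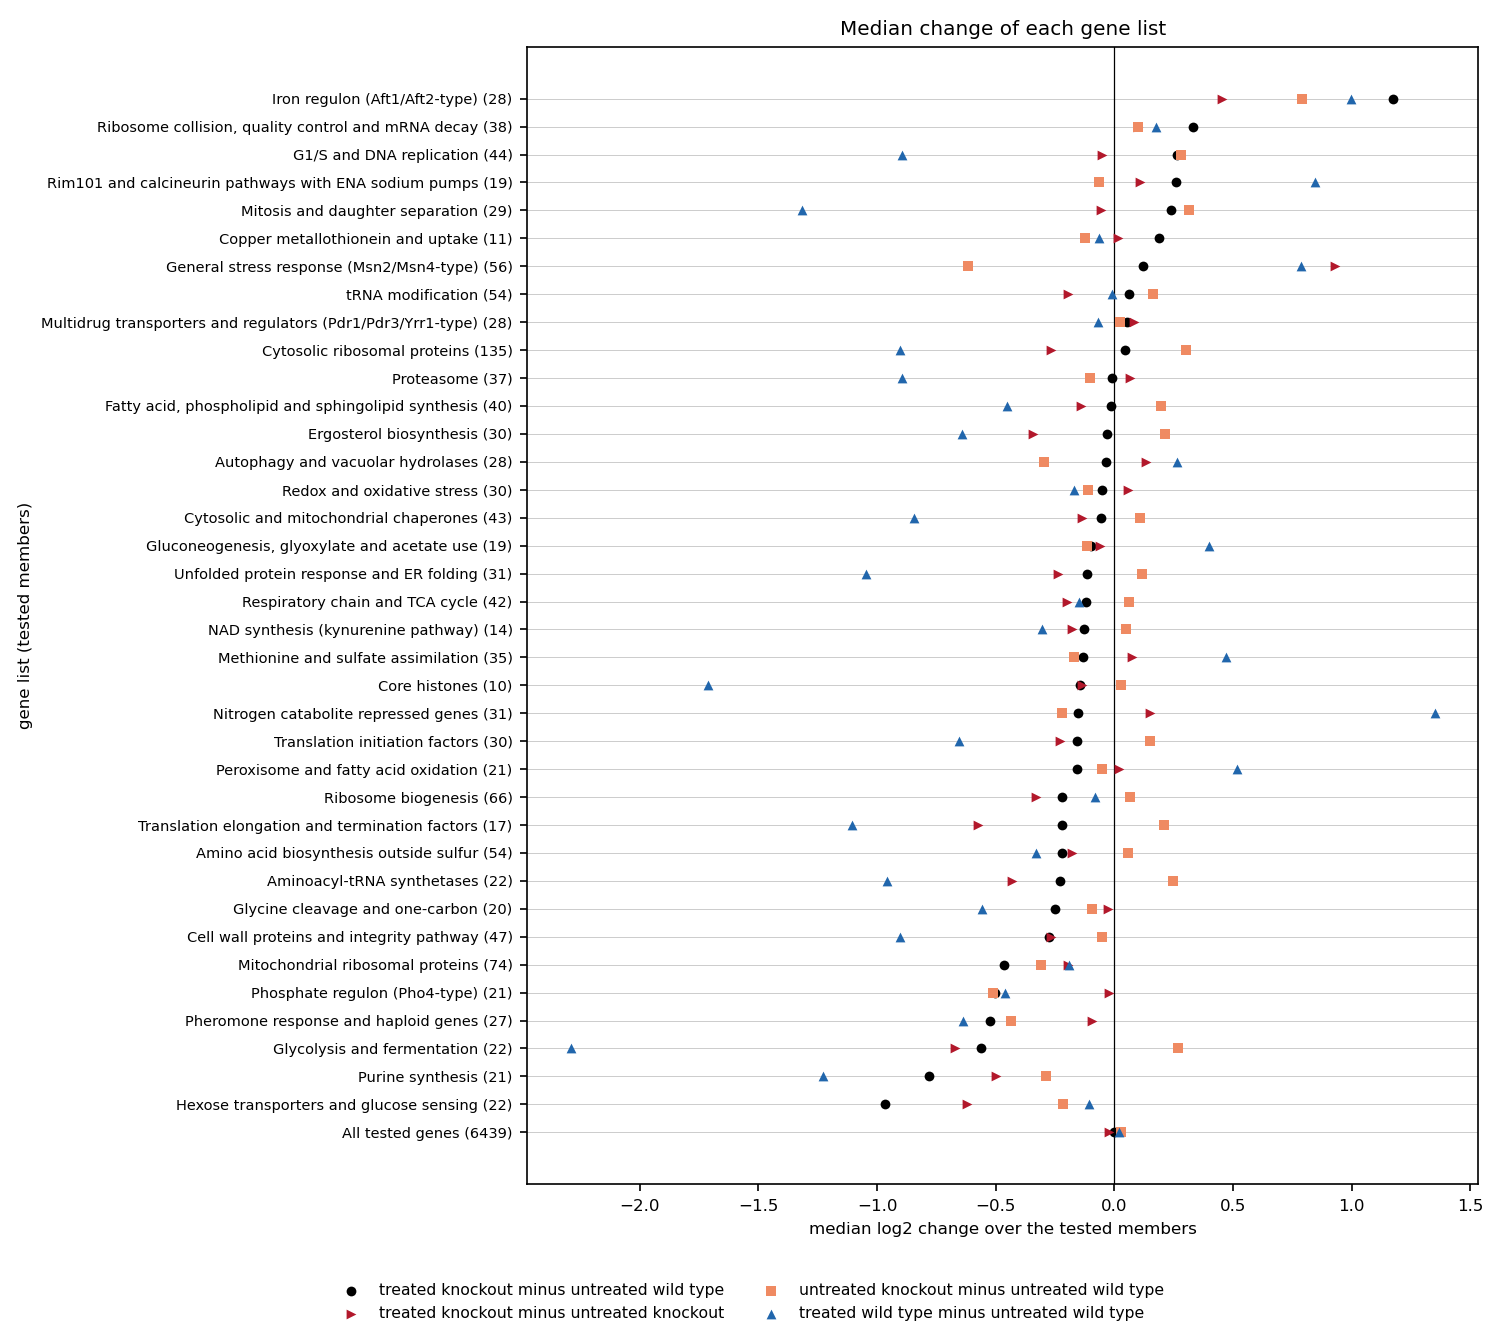
Median log2 change (x axis) over the tested members of 37 gene lists and of all tested genes (rows, members in brackets) in the total change and in 3 of its steps. The iron regulon has the highest total median, 1.18, and hexose transport the lowest, -0.97, while the stress list sits at -0.62 in the genotype step, 0.93 in the drug step in the knockout and 0.12 in total.

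The other route between the same end groups, through the treated wild type, held more opposite signs. The drug step in the wild type and the genotype step under drug were called with opposite signs in 4042 genes, or 62.8%, and with the same sign in 273, or 4.24%. Of the cancelling genes 2078 were no longer called in the total, and 1262 had both steps at least 2-fold. With a different treated wild-type library in each step 3867 or 3880 genes cancelled and 283 or 290 added up. All 10 core histone genes were lower in the drug step in the wild type, where 38.4% of all genes were lower, with a median of -1.71. All 10 were higher in the genotype step under drug, where 37.3% were higher, with a median of 1.46. This left 2 higher and 4 lower in total, where 26.4% of all genes were higher and 25.8% lower. HTB2, a histone H2B gene, had 1112 and 1071 in the treated knockout, 1074 and 1147 in the untreated knockout, 141 and 134.5 in the treated wild type and 799.9 and 831 in the untreated wild type.

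Proteasome genes and genes repressed by good nitrogen sources also had steps of opposite sign on this route. Of 37 proteasome genes 34 were lower and 1 higher in the drug step in the wild type, where 38.4% of all genes were lower. In the genotype step under drug 36 were higher and none lower, where 37.3% of all genes were higher. In total 6 were higher and 8 lower, where 26.4% of all genes were higher and 25.8% lower. As deposited, 1 was lower in the drug step in the wild type, where 366 of all 6439 genes were. With TPM 20 were lower and 2 higher, where 1180 of all genes were lower and 3029 higher. Of 31 nitrogen catabolite genes 24 were higher and 4 lower in the drug step in the wild type, where 40.4% of all genes were higher. In the genotype step under drug 25 were lower and 2 higher, where 39.9% of all genes were lower. In total 8 were higher and 13 lower, where 26.4% of all genes were higher and 25.8% lower. PUT1, the proline oxidase, had 24.6 and 30.6 in the treated knockout, 7.77 and 6.38 in the untreated knockout, 1360.0 and 1255 in the treated wild type and 6.26 and 5.57 in the untreated wild type. Its total change was 2.04, and its drug step in the wild type 7.56.

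The total differed from the sum of the genotype step and the wild-type drug step, both taken from the untreated wild type, in 4152 genes, or 64.5% (limma, the interaction term, adjusted p under 0.05). The departure was positive in 1972 genes, or 30.6%, and negative in 2180, or 33.9%. It was at least 2-fold in 1303 genes, or 20.2%, and its median absolute size was 0.53. For HSP12 the sum of the single changes was 5.72 and the total 4.21, a departure of -1.51 ± 0.39 (SE). For PUT1 the sum was 7.79 and the total 2.04. For HXT4 the sum was -5.02 and the total -3.90, and for ADE17 they were -5.52 and -3.41. For BSC1 and PRM7 the total went beyond the sum, at -4.60 against -2.18 and -4.54 against -2.15. For GRE3 and PHM6 the departures of 0.00 and 0.02 were not called.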

How the data were processed

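RNA of 8 yeast libraries was measured by RNA-seq after poly(A) selection and depletion of small and ribosomal RNA, per the labels' protocols. STAR 2.7.8a, RSEM 1.3.3, FastQC 0.11.8 and cutadapt 2.3 are named in the submitters' processing notes, and the genome build, the annotation and the use of strand are not given in the sources used here. The authors deposited a table of FPKM per gene and library, made from their aligned reads. A search for whole reads behind the low FPKM found none that held, so depth is unknown and no counting interval is given.

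Libraries were grouped by title. FPKM were divided by median-of-ratios scale factors between 0.611 and 1.438, and log2 of the value plus 1 entered a limma fit (version 3.58.1, under R 4.3.3) with 1 mean for each of 4 groups over all 8 libraries, a mean-variance trend and 4 residual degrees of freedom (6.39 after moderation). A fold change on this scale understates the change of low genes. Tables were summarised with pandas 2.3.3 in Python 3.11.15. The labels call the libraries biological duplicates. The p-values rest on the spread within duplicates, as 1 estimate for each gene over all 4 groups, moderated across genes.

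Named genes are TRM2, the 15 highest and 15 lowest as described, 6 genes for each of 4 classes of steps, up to 4 members of each list with the smallest p, and members called against their list's majority where these are 5 or fewer. The comparison, the 38 gene lists and the tests were chosen with earlier results of these data known, and a few list entries were corrected, and a list renamed, after values were seen. On simulated data of 6439 genes for the treated knockout against the untreated wild type, 47.8% of genes changed by 0.5 on the log2 scale, 89.6% of those changed by 1 and 97.0% of those changed by 2 were called, with 10 false calls. There 67, 67 and 66 genes were changed, in the treated knockout alone, with noise drawn independently for each gene and library. The ribosomal DNA share was not varied, so the 10 false calls do not cover errors of scaling. Alternatives covered scaling, pseudocounts of 0.1 and 5, filters on low values, the libraries in the fit, the trend, a replicate block and leaving out each library. Of the 7127 features 6047 matched a gene of RefSeq R64 by identifier, which supplied promoters and overlaps.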

Additional observations from a re-analysis of the deposited data

Results flagged for a closer look

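The drug step differed between knockout and wild type in 4152 of 6439 tested genes, or 64.5%, as the called interaction term of limma. Some named genes were chosen for a called drug step in the knockout, so they do not stand for all genes. Among 133 genes drawn from the named genes, those called in opposite directions by the drug in the 2 genotypes are given here by that difference, the drug step in the knockout minus the drug step in the wild type, on the log2 scale. It was negative, with the drug lowering the gene in the knockout and raising it in the wild type, for MDH2 at -2.003, URA1 at -1.65, FRE4 at -2.12, EEB1 at -1.86 and MTH1 at -2.09. The sodium pump gene ENA1 at -2.60 and its near-identical neighbour ENA2 at -0.67 went the same way, and reads of the 2 may have been shared out between them. It was positive, with the drug raising the gene in the knockout and lowering it in the wild type, for LSO1 at 4.49, TDH1 at 3.72, RPS22B at 2.63, SHM2 at 1.94, MTD1 at 1.76, HHF1 at 1.26, DSE1 at 1.17, MET6 at 1.15, UFD1 at 1.02 and RPT4 at 0.66. The replicates of LSO1 differed widely, and RPS22B overlaps a small nucleolar RNA gene in R64. The causes of these differences were not tested.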

How the results depend on the processing

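With the FPKM as deposited the numbers of called genes fell to 203 for the total change, 3 that added up and 34 that cancelled through the untreated knockout, 10 and 1714 through the treated wild type, and 469 for the departure from additivity. With TPM they were 1382, 66, 331, 48, 3296 and 2238. The median over all genes shifted with the FPKM as deposited by 0.10 in the total change, -0.26 in the genotype step, 0.36 in the drug step in the knockout and 0.61 in the drug step in the wild type. Without both end-group libraries of high ribosomal DNA share, a version chosen after seeing the data, 1332 genes were called in total. With no untreated knockout library shared between the steps, also chosen after seeing the data, 300 or 217 genes added up and 400 or 422 cancelled. Fitting only the groups compared gave 3678 called genes in total, with 553 that added up and 959 that cancelled. Leaving out 1 library at a time gave 2440 to 3795 called genes in total, 224 to 707 that added up, 435 to 1227 that cancelled, 179 to 267 and 3729 to 4077 through the treated wild type, and 3613 to 4322 departures. These moved by over 1.5 times without treated knockout library 1 (291 added up, 538 cancelled) or 2 (239, 461, and 179 that added up through the treated wild type), without untreated knockout library 1 (235, 484) or 2 (224, 435), and without untreated wild-type library 1 (516 cancelled) or 2 (287, 580). With a replicate block 3385 genes were called in total, 513 added up and 879 cancelled, and deviations of libraries with the same number correlated between -0.23 and 0.26, so the numbers were not taken as a pairing. Among the named genes 3 turned sign when 1 library was left out, none of them called in the total: snR85 lay between -0.29 and 0.35, YOR345C between -0.023 and 0.21 and LSO1 between -0.64 and 0.19. Of the other settings of named genes 2222 kept direction and call, 137 lost the call and 8 gained it. The causes of these shifts were not tested.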
